A study of Rattus norvegicus with 12 samples.

Results

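Wfs1, Mpped1, Fibcd1, Pou3f1 and Spink8 are 5 genes used as markers of the pyramidal neurons of hippocampal field CA1, and they were followed here through hippocampal RNA from 12 blast-exposed rats. The genes were picked by name, with no expression threshold but with earlier results of these data known. All 5 were found among the 17494 genes of the count table. Of these, 4 passed the filter on low counts that left 12325 genes to test, and Spink8 did not. All rats were male Long Evans rats, WT in the labels, that received 3 low-level blasts, 1 per day, at 10 weeks of age. The 6 blast-boldine rats ate chow with 500 mg/kg boldine, an alkaloid of the boldo tree, beginning in week 2 after blast and lasting until sacrifice at 29 weeks after blast. The 6 blast-control rats ate the same chow without it. No rats without blast were among these libraries, so each comparison is between blast-exposed animals. The labels call the tissue brain, the methods of the study name the hippocampus, and each library came from 1 rat with RNA integrity numbers above 7.

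CA1 is the main output field of the hippocampus proper, where pyramidal neurons receive input from CA3 and project to the subiculum and cortex, and it is needed for spatial and contextual memory. The principal cell fields of the hippocampus differ in the genes that they express, and a bulk sample holds all of them together with glia and vessels. Wfs1 encodes wolframin, a membrane protein of the endoplasmic reticulum that is mutated in Wolfram syndrome. Pou3f1 encodes a transcription factor of the POU family that also acts in myelinating glia and cortical neurons. Mpped1 encodes a protein with a metallophosphoesterase domain. Fibcd1 encodes a transmembrane receptor with a fibrinogen-like domain that binds acetylated sugars such as chitin. Spink8 encodes a secreted inhibitor of the Kazal type, a family that blocks serine proteases. The use of these genes as CA1 markers rests largely on mouse brain, and bulk RNA has no spatial resolution with which to check it.

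The genes lie apart from each other on mRatBN7.2, the build to which the counts refer, and no exon base of any of them was shared with another listed gene on either strand. Wfs1 is at chr14:73818046-73834993 on the plus strand, with 7 exons and 2731 exon bases. Mpped1 is at chr7:114944764-115011787 on the plus strand, with 6 exons and 3189 exon bases. Fibcd1 is at chr3:15092681-15126399 on the minus strand, with 7 exons and 4695 exon bases. Pou3f1 is at chr5:136910391-136913371 on the plus strand, with 1 exon of 2981 bases. Spink8 is at chr8:109817365-109828993 on the plus strand, with 6 exons and 674 exon bases, which makes it the shortest of the 5.

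The promoters of Wfs1, Mpped1 and Fibcd1 were in the RefSeq table used here, which is on GRCr8, a later build than that of the counts. They are shown because these markers differed in the direction of their sheet difference, Mpped1 and Fibcd1 against Wfs1. Each sequence is the 250 bases before the start that RefSeq gives the gene, 5′ to 3′ on the strand of the gene. Capitals mark matches to GGGCGG (GC box), CCAAT and CAGATG (an E-box), searched on both strands, so that some matches appear as the reverse complement.
Wfs1: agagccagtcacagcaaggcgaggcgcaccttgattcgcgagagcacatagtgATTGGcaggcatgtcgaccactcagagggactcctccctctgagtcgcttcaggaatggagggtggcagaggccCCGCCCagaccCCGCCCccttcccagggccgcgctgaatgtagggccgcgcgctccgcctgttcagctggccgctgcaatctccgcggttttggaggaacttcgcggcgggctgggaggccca
Mpped1: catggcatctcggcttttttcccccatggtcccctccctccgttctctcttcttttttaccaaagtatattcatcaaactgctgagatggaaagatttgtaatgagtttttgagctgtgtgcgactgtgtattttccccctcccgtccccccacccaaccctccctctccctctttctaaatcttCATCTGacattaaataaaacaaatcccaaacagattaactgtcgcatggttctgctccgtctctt
Fibcd1: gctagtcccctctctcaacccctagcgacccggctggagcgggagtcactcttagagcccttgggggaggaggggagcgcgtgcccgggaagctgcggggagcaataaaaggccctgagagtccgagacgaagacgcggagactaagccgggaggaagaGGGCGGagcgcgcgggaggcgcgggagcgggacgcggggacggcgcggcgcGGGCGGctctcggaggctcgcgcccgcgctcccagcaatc
The Wfs1 sequence is chr14:78034955-78035204 on the plus strand, that of Mpped1 chr7:116824504-116824753 on the plus strand, and that of Fibcd1 chr3:35524143-35524392 on the minus strand.

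The 3 promoters differed in base composition. The Fibcd1 promoter had 72.0% G and C with 32 CpG dinucleotides, that of Wfs1 66.0% with 20, and that of Mpped1 45.2% with 6, against a median of 51.2% G and C over 33469 promoters of this length. Wfs1 and Fibcd1 each held 2 GC boxes, a motif found in 30.5% of all promoters, and Mpped1 held none. Wfs1 also held 1 CCAAT, present in 34.0% of promoters, and Mpped1 held 1 CAGATG, present in 14.0%. None of the 3 had TATAAA (12.9% of promoters), the cyclic AMP response element TGACGTCA (1.59%) or ATGCAAAT, the octamer bound by POU proteins (1.56%). Pou3f1 and Spink8 were not matched in the table.

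The libraries differed in sequencing depth and, by their suffixes, in origin. Totals ranged from 10148474 to 40850106 counts in 11 libraries, while that of blast-control rat 6 held 74008. In rat 6 a floor of 3 counts equals 47.5 CPM (the usual depth-scaled count, relative here to TMM-scaled totals), against 0.0658 to 0.307 CPM in the other rats, and floors and intervals on counts reflect counting error alone. Each of the library suffixes S1 to S6 occurs on 2 libraries, so the 12 libraries were numbered in at least 2 series. These were taken here to be 2 sample sheets, which the labels do not name. Of the 32 ways to split the suffix pairs into sheets, 4 have rat numbers that rise with the suffix within each sheet, and the choice was made among these. The chosen 1 accounted for 95% of the first principal component of expression over 11 rats without rat 6, and the other 3 for 2.86 to 57.5%. It was also the highest of all 32, where the next accounted for 62.1%. That assignment, inferred in this way and not stated by the labels, puts rats 1, 7, 9, 20, 32 and 35 in sheet A and rats 4, 5, 6, 12, 17 and 19 in sheet B, with 3 rats of each treatment in each sheet. What the sheets stand for was not given in the sources used here.

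Per kilobase of exon, Wfs1 was the most abundant of the 5 genes, followed by Mpped1, Fibcd1 and Pou3f1. Over the 11 rats other than rat 6 the mean level was 147 ± 26.9 CPM per kb for Wfs1, 61.3 ± 19.9 for Mpped1, 37.8 ± 11.2 for Fibcd1 and 19.98 ± 6.39 for Pou3f1 (SD, n = 11). The order of these 4 genes held in each of the 11 rats, although the ranges of 1 SD of Mpped1 and Fibcd1 overlapped. In rat 6 Wfs1 was again the highest, at 244 CPM per kb from 42 counts, but Mpped1 was the lowest at 4.97 from 1 count.

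Spink8 was close to absent. Its counts summed to 8 over 12 rats and 193763528 counts, or 0.0413 CPM of the summed, unscaled totals with a 95% Poisson interval of 0.0178 to 0.0814. No rat had more than 2 counts and 5 rats had 0. Both groups summed to 4 counts, and 18.6% of the 17494 genes had no more counts than Spink8. No fold change is given for it, since both groups lay at the floor. The listed markers that could be compared in these libraries are therefore the other 4 genes.

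No CA1 marker passed the test for a boldine effect. In the quasi-likelihood test of edgeR with Benjamini-Hochberg adjustment over all genes, 0 of the 4 tested markers had an adjusted p under 0.05 (0% of all 12325 genes), and each adjusted p was 1. By unadjusted p, 0 of the 4 were under 0.05, against 132 genes or 1.07% of those tested. DESeq2 and limma-voom also gave no gene an adjusted p under 0.05, with 85 and 115 genes at an unadjusted p under 0.05. All 4 markers had a log2 fold change below 0, as did 48.7% of all genes, and their median was -0.175 against 0.005 for all genes. This rested on single rats: without blast-control rat 4, 2 of 4 were lower with a median of -0.038, and without blast-control rat 7, 2 of 4 with a median of -0.111. Without blast-boldine rat 12, 17 or 19, 3 of 4 were lower, and without rat 6 all 4 were, with a median of -0.256. The 4 genes share cells and libraries and are not independent of each other. In bulk tissue, fewer cells of a type and less RNA per cell cannot be told apart.

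**Figure D1:**
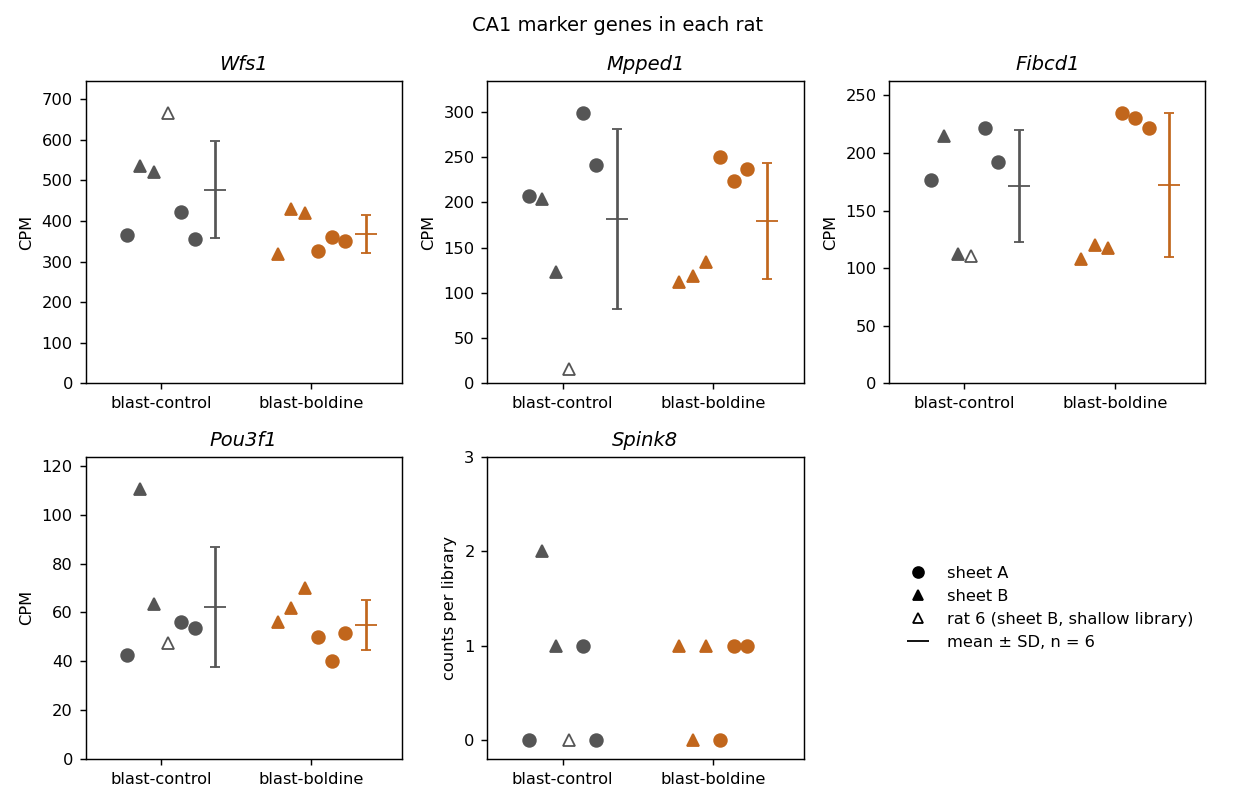
Levels of the 5 CA1 markers in each of 12 rats, in CPM for Wfs1, Mpped1, Fibcd1 and Pou3f1 and in counts per library for Spink8. Circles are sheet A, triangles sheet B, the open triangle is rat 6, and bars give the mean and SD of 6 rats. Wfs1 has 3 blast-boldine rats lower than all blast-control rats, and Mpped1 and Fibcd1 separate by sheet more than by treatment.

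Wfs1 showed the largest difference of the 4 in proportion to its error. In sheet B it stood at 535, 522 and 665 CPM in blast-control rats 4, 5 and 6, and at 320, 431 and 419 CPM in blast-boldine rats 12, 17 and 19. In sheet A it stood at 366, 422 and 355 CPM in blast-control rats 1, 7 and 9, and at 325, 359 and 351 CPM in blast-boldine rats 20, 32 and 35. All 6 blast-boldine rats thus lay under the blast-control median of 472 CPM. Without rat 6 that median was 422 CPM, and 5 of the 6 lay under it. With or without rat 6, 3 of the 6 were lower than all blast-control animals. The sheet B groups did not overlap, and in sheet A 2 of 3 blast-boldine rats were lower than all 3 blast-control rats. Wfs1 was the only 1 of 4 markers without overlap in sheet B, where 3.42% of genes had every blast-boldine rat lower. In sheet A that held for 0 of 4 markers and 3.98% of genes.

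The mean of Wfs1 was 367 ± 47.0 CPM in blast-boldine and 477 ± 119 CPM in blast-control rats (SD, n = 6 each). Its log2 fold change in edgeR was -0.35 ± 0.17 (SE), with a 95% interval from -0.72 to 0.01, an unadjusted p of 0.0541 and rank 142 of 12325 genes by p. An exact two-sided permutation test of mean log2 CPM over 924 assignments gave a difference of -0.35 and p = 0.0563, where the smallest p possible was 0.00216. With assignments exchanged only within sheets, the exact permutation p was 0.0100 (400 assignments, smallest possible 0.00500). That p depends on sheets that were chosen on the expression of these same libraries.

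The size of the Wfs1 difference rested in part on the shallow library. Rat 6 had the highest value, and its 42 counts carry a 95% Poisson interval of 480 to 899 CPM. When it was left out, blast-control rats averaged 440 ± 84.7 CPM (SD, n = 5). The edgeR log2 fold change was then -0.26 ± 0.14 (SE), with an unadjusted p of 0.0934. The exact permutation p without rat 6 was 0.110, and 0.0750 within sheets. By that fit 0 of 4 markers and 1.40% of genes had an unadjusted p under 0.05.

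The sheets were chosen on the expression of these same libraries, which can in itself lower the residual spread of fits with sheet. Taking the sheet into account narrowed the interval for Wfs1. With sheet as a covariate its log2 fold change was -0.31 ± 0.11 (SE), with a 95% interval from -0.54 to -0.08, an unadjusted p of 0.0119 and an adjusted p of 1 in edgeR. Wfs1 was then the 1 of 4 markers with an unadjusted p under 0.05, as were 3.85% of all genes, and it ranked 113 of 12325. Leaving out rat 6 as well gave -0.28 ± 0.09 (SE), an unadjusted p of 0.0113 and an adjusted p of 0.898, with 1 of 4 markers and 5.35% of genes under 0.05. DESeq2 on all rats put 1 of the markers under 0.05, Wfs1 at an unadjusted p of 0.0244, against 0.542% of genes, and 0.0827 without rat 6. The edgeR log2 fold change of Wfs1 was -0.15 (unadjusted p = 0.171) in sheet A and -0.52 (unadjusted p = 0.0263) in sheet B, and -0.44 (unadjusted p = 0.0229) in sheet B without rat 6. Without rat 4 it was -0.53 (unadjusted p = 0.0204) in sheet B, where Mpped1, Fibcd1 and Pou3f1 were then at 0.06, 0.04 and -0.004. In sheet B the edgeR fits put 481 of 11985 genes under 0.05 with all rats, 692 of 12215 without rat 6 and 1128 of 12149 without rat 4. The exact permutation p of Wfs1 was 0.1 in each case, the smallest possible there. The difference of the Wfs1 effect between sheets was 0.36 ± 0.21 (SE) with an unadjusted interaction p of 0.101. With the other sheet assignments as a covariate, the unadjusted edgeR p of Wfs1 was 0.0408 to 0.0694.

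**Figure D2:**
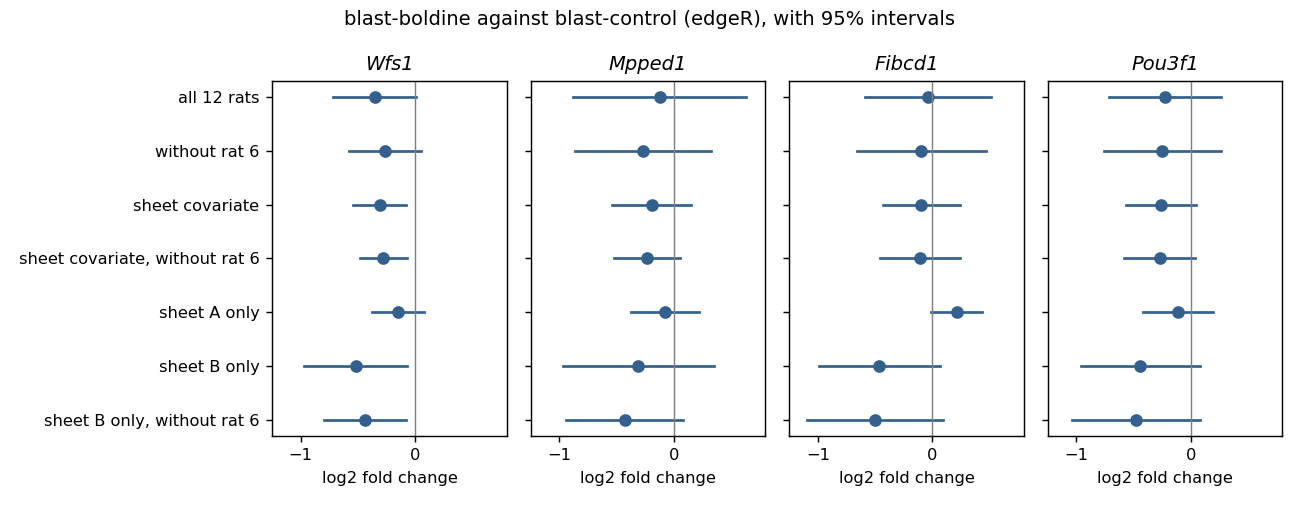
Log2 fold change of blast-boldine against blast-control rats for Wfs1, Mpped1, Fibcd1 and Pou3f1 in edgeR, with points for estimates and lines for 95% intervals, under 7 choices of rats and terms. Wfs1 lies below 0 under each choice, while Fibcd1 is at 0.21 in sheet A only and at -0.46 in sheet B only.

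Mpped1 varied with the sheet and not measurably with boldine. In sheet B it stood at 204, 123 and 15.8 CPM in blast-control rats 4, 5 and 6, and at 112, 119 and 134 CPM in blast-boldine rats 12, 17 and 19. In sheet A it stood at 207, 299 and 241 CPM in blast-control rats 1, 7 and 9, and at 250, 223 and 237 CPM in blast-boldine rats 20, 32 and 35. The treatment groups overlapped in both sheets. The edgeR log2 fold change was -0.12 ± 0.35 (SE), with a 95% interval from -0.88 to 0.63 and an unadjusted p of 0.733. The difference in mean log2 CPM was 0.33 over all rats (exact permutation p = 0.801) and -0.28 without rat 6 (exact permutation p = 0.381). That change of sign came with 1 library, whose 1 count has a 95% Poisson interval of 0.401 to 88.3 CPM, below the 112 CPM of the lowest other rat.

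Fibcd1 showed no difference past the test in either sheet, and its sign in sheet B rested on 1 rat. In sheet A it stood at 177, 222 and 192 CPM in blast-control rats 1, 7 and 9, and at 234, 230 and 222 CPM in blast-boldine rats 20, 32 and 35. Every blast-boldine rat of sheet A was thus above every blast-control rat, as for 2.92% of genes, although the nearest pair both stood at 222 CPM. In sheet B it stood at 214, 112 and 111 CPM in blast-control rats 4, 5 and 6, and at 108, 120 and 118 CPM in blast-boldine rats 12, 17 and 19. Rat 4 alone lay apart there, and the other 5 rats were within 108 to 120 CPM.

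Over all rats the Fibcd1 log2 fold change was -0.04 ± 0.26 (SE), with a 95% interval from -0.59 to 0.52 and an unadjusted p of 0.889 in edgeR. The exact permutation p was 0.987, and 0.613 without rat 6. Within sheets edgeR gave 0.21 (unadjusted p = 0.0584) in sheet A and -0.46 (unadjusted p = 0.0821) in sheet B. Without blast-control rat 4 the sheet B value was 0.04 (unadjusted p = 0.760), so that the signs were no longer opposite. The interaction of boldine and sheet was 0.69 ± 0.27 (SE), with an unadjusted p of 0.0225 and an adjusted p of 1. Fibcd1 was the 1 of 4 markers with an unadjusted interaction p under 0.05, as were 4.30% of genes. Without rat 4 the interaction was 0.17 ± 0.16 (SE), with an unadjusted p of 0.316.

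Pou3f1 was set apart by 1 rat. In sheet B it stood at 110, 63.6 and 47.5 CPM in blast-control rats 4, 5 and 6, and at 55.9, 61.8 and 70.2 CPM in blast-boldine rats 12, 17 and 19. In sheet A it stood at 42.4, 56.0 and 53.6 CPM in blast-control rats 1, 7 and 9, and at 49.9, 39.9 and 51.4 CPM in blast-boldine rats 20, 32 and 35. The groups overlapped in both sheets. The edgeR log2 fold change was -0.23 ± 0.23 (SE), with a 95% interval from -0.71 to 0.26 and an unadjusted p of 0.331, and the exact permutation p was 0.636. Without blast-control rat 4 the log2 fold change was 0.03, and the direction turned. Without rat 6 it was -0.25 (unadjusted p = 0.305).

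Blast-control rat 4 had the highest Mpped1, Fibcd1 and Pou3f1 of the sheet B rats and the highest Wfs1 of any rat but rat 6. The 5 markers summed to 1064 CPM in that rat, against 792 to 998 CPM in the other 5 blast-control rats and 596 to 862 CPM in blast-boldine rats. Its sum of 5 general pyramidal neuron genes (Slc17a7, Neurod6, Neurod2, Camk2a and Nrgn) was 5373 CPM, the highest of the 12 rats. The part of this in the marker values was not tested.

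The 4 markers split by sheet into pairs of opposite direction. Mpped1 was higher in sheet A than in sheet B by 0.84 ± 0.16 on the log2 scale (SE; edgeR adjusted p = 0.000379) and Fibcd1 by 0.67 ± 0.16 (edgeR adjusted p = 0.00164). Pou3f1 was lower in sheet A, at -0.57 ± 0.14 (edgeR adjusted p = 0.00275), as was Wfs1 at -0.34 ± 0.11 (edgeR adjusted p = 0.0116). All 4 tested markers passed, where 66.1% of the 12325 genes did, so passing is not particular to them. Without rat 6 the values were 0.79, 0.66, -0.59 and -0.32. The assignment to sheets was chosen on the expression of all genes, these included, so the sheet tests describe that split. Lists of other cell types differed between sheets as well. The median of sheet A minus sheet B was 1.09 over 5 microglial genes and 0.72 over 5 oligodendrocyte genes. It was -0.87 over 5 pyramidal neuron genes and -1.06 over 5 endothelial genes. The pyramidal neuron genes were mixed, with 3 lower and 1 higher in sheet A at an edgeR adjusted p under 0.05. The median was above 0 for 6 CA2 genes (0.30), 4 CA3 genes (0.58) and 3 dentate granule genes (0.26). For 2 genes of the subiculum (-1.30) and 9 cortical genes (-0.29) it was below 0. The part of tissue composition in the sheet difference was not tested.

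The ratio of Wfs1 to Fibcd1 per kilobase showed the split within each rat. It was 2.39 to 3.56 in the 6 rats of sheet A and 4.29 to 8.0 in sheet B without rat 6, with no overlap. In sheet A the ratio was 2.39 to 2.71 in blast-boldine and 3.18 to 3.56 in blast-control rats. In sheet B it was 5.09 to 6.16 in blast-boldine rats, within the 4.29 to 10.3 of blast-control rats. The ratio of Mpped1 to Fibcd1 was narrower, at 1.40 to 1.98 in the 11 rats, and overlapped between sheets. In sheet A this ratio too was apart by treatment, at 1.43 to 1.57 in blast-boldine and 1.72 to 1.98 in blast-control rats. In sheet B without rat 6 it was 1.46 to 1.67 and 1.40 to 1.61. Both ratios are taken over Fibcd1, which was itself apart by treatment in sheet A. How often ratios of other gene pairs were apart there was not measured. The ratio of Wfs1 to Mpped1 overlapped in sheet A, at 1.52 to 1.88 in blast-boldine and 1.65 to 2.07 in blast-control rats. That of Wfs1 to Pou3f1 also overlapped, at 7.12 to 9.83 and 7.22 to 9.44.

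How the markers co-varied depended on whether the sheet difference was removed. Over 11 rats without rat 6, log2 CPM of Mpped1 and Fibcd1 had a Pearson r of 0.95, which stayed at 0.87 after centring within sheet. Mpped1 and Pou3f1 had an r of -0.28 before centring and 0.95 after. Pou3f1 then had rank 2 among 12324 genes in likeness to Mpped1. Wfs1 had an r of 0.61 with Mpped1, 0.46 with Fibcd1 and 0.58 with Pou3f1 after centring within sheet. Centred within sheet and treatment these were 0.38, 0.31 and 0.28, while the other 3 pairs were at 0.85 to 0.93. These are descriptions over libraries that share sheets and differ in depth.

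Rat 4 carried part of the likeness. Leaving it out as well, over 10 rats, the centred r was 0.83 for Mpped1 and Pou3f1, 0.50 for Mpped1 and Fibcd1, and 0.21 for Fibcd1 and Pou3f1. The r of Wfs1 was then 0.42 with Mpped1, 0.06 with Fibcd1 and 0.35 with Pou3f1.

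**Figure D3:**
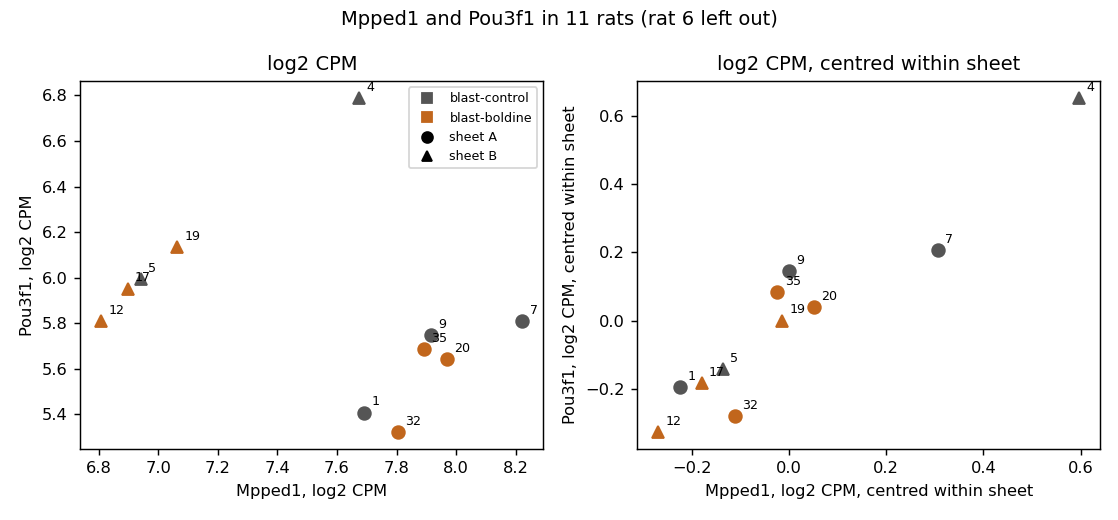
Pou3f1 against Mpped1 in 11 rats, in log2 CPM as measured and after subtracting the mean of each sheet. Each point is a rat with its number, coloured by treatment and shaped by sheet. The r is -0.28 as measured and 0.95 after centring, with rat 4 at the upper right end.

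The genes whose centred pattern was most like each marker over the 11 rats differed between markers. For Wfs1 they were Ndst1, a heparan sulfate sulfotransferase, Sp7, a transcription factor, and Cdk18, a kinase, with r of 0.94, 0.93 and 0.93. For Mpped1 they were Pnoc, the precursor of nociceptin, Pou3f1, and Bcan, the proteoglycan brevican, with r of 0.98, 0.95 and 0.95. For Fibcd1 they were Peds1, RGD1562890 and Pigq, with r of 0.97, 0.96 and 0.95. For Pou3f1 they were Elmo2, Snapc2 and Josd2, with r of 0.96, 0.96 and 0.95. Of these 12 entries, 1 was itself a CA1 marker. The r values are the highest among 12325 genes over 11 rats, so their size owes in part to that selection. Sp7 and RGD1562890 had low means, at 1.38 and 0.89 CPM.

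Other genes enriched in CA1 did not pass the test for boldine either. Of Ccn3, Dcn and Crym, 0 of 3 passed, and Man1a was not analysed here. Ccn3, a matricellular protein, had a mean of 122 ± 47.1 CPM in blast-boldine and 138 ± 53.3 CPM in blast-control rats (SD, n = 6 each), and a log2 fold change of -0.25 (unadjusted p = 0.399). Crym, a thyroid hormone binding protein, had a log2 fold change of 0.12 (unadjusted p = 0.766), and Dcn, the proteoglycan decorin, -0.02 (unadjusted p = 0.958). All 3 were higher in sheet A, by 0.79 for Ccn3, 0.68 for Dcn and 1.15 for Crym (edgeR adjusted p = 0.000379, 0.00549 and 6.74e-05). In this they went with Mpped1 and Fibcd1 and against Wfs1 and Pou3f1.

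The relatives of the markers gave 0 of 5 genes that passed for boldine. Mpped2, the paralogue of Mpped1, had a log2 fold change of -0.05 ± 0.12 (SE) and no measurable sheet difference, at 0.05 ± 0.09 (edgeR adjusted p = 0.679). The POU factors Pou3f2 and Pou3f3 had boldine log2 fold changes of 0.03 and -0.02, and both were lower in sheet A, by -0.91 and -0.95, as was Pou3f1. Pou3f4 was at -0.43 (unadjusted p = 0.189), or -0.35 (unadjusted p = 0.0299) with sheet as a covariate, and was higher in sheet A by 0.98. Cisd2, a protein of the endoplasmic reticulum whose gene is mutated in a second form of Wolfram syndrome, was at -0.04 ± 0.17 (SE) where Wfs1 was at -0.35.

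Of the markers of neighbouring fields and other cell types, none passed the adjusted test for boldine in edgeR. The median log2 fold change was -0.005 over 6 CA2 genes, 0.12 over 4 CA3 genes, -0.02 over 3 dentate granule genes and -0.14 over 5 pyramidal neuron genes, against -0.175 over the 4 CA1 markers. Outside the hippocampal fields it was -0.206 over 5 genes of oligodendrocyte precursors (4 of 5 lower) and -0.161 over 5 microglial genes (5 of 5 lower). It was 0.232 over 5 endothelial genes and 0.325 over 5 choroid plexus genes (0 of 5 lower in each). The median of the 4 CA1 markers was thus the lowest but 1 of 18 lists. With sheet as a covariate it was -0.225, the lowest of the 18, followed by the precursors at -0.163, and it was also the lowest without rat 6. Without rat 4 it was -0.038 and had rank 7 from the lowest, while the pyramidal neuron list was at 0.078. The 3 other CA1-enriched genes had a median of -0.015 with treatment alone and 0.016 with sheet as a covariate (1 of 3 lower). These had ranks 10 and 14 of 18 from the lowest. Their median was -0.05 without rat 6 and -0.145 without rat 4. The lists held 2 to 9 tested genes and were chosen with earlier results of these data known. Ranks among them are a description and were not tested. The cortical list, which matters because Wfs1 and Pou3f1 are also expressed in cortex, had a median of -0.10 over 9 genes, and its summed level was 251 to 379 CPM in blast-boldine and 279 to 374 CPM in blast-control rats without rat 6. Thalamic Slc17a6, a vesicular glutamate transporter, was the only gene of the other marker lists with an unadjusted p under 0.05 in the fit of treatment alone, at -0.64 ± 0.27 (SE). Its p in the edgeR fit across all genes was 0.0337, with an adjusted p of 1. With sheet as a covariate, the genes of these lists with an unadjusted p under 0.05 were 2 of 9 cortical, 1 of 4 thalamic, 1 of 5 precursor and 1 of 5 microglial genes, all lower and each with an adjusted p of 1, against 3.85% of all genes. The cortical list had 6 of 9 genes lower and a median of -0.082 in that fit. Choroid plexus genes had a median of 0.819 with sheet as a covariate and 0.041 without rat 4. They summed to 8.54 to 1200 CPM over blast-boldine rats and 12.9 to 1177 CPM over blast-control rats without rat 6. The part of tissue composition in the marker values was not tested.

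**Figure D4:**
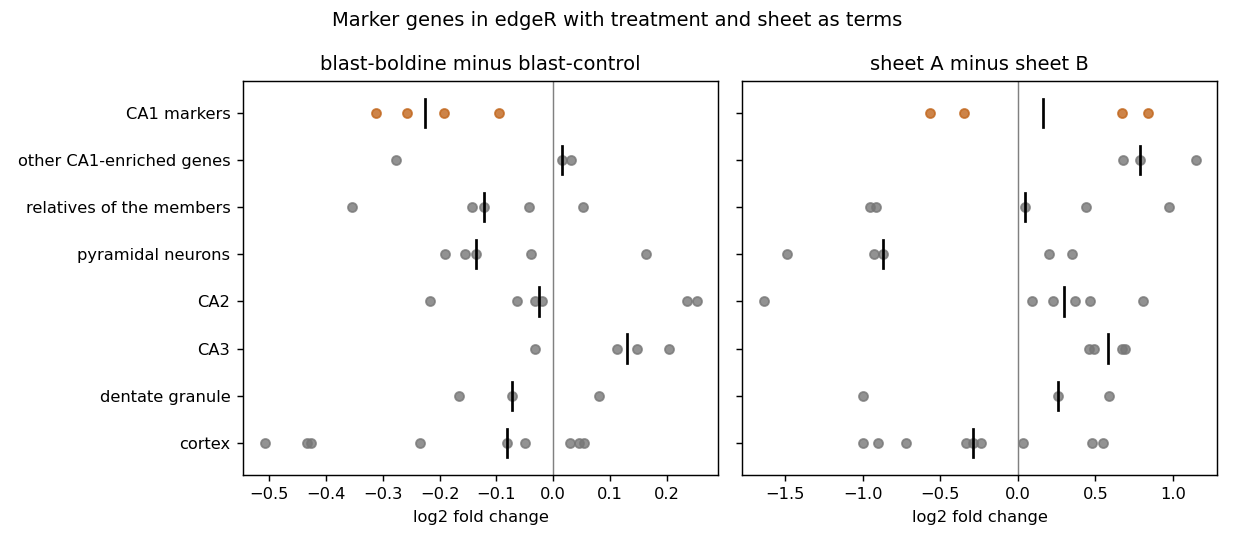
Log2 fold changes of marker genes in edgeR with treatment and sheet as terms, for boldine on the left and sheet on the right, with a dot per gene and a line at the median of each list; the axes differ in range. The 4 CA1 markers lie between -0.31 and -0.09 for boldine and on both sides of 0 for sheet, while the other CA1-enriched genes lie between 0.68 and 1.15 for sheet.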

How the data were processed

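The authors trimmed the reads, removed duplicates, aligned them to mRatBN7.2 with STAR 2.7.11b and counted RefSeq exons by gene with featureCounts (Subread 2.0.1). The deposited values are raw counts for 17494 genes in 12 libraries, 1 per rat. Groups came from the labels, and dose and times from the methods. The 5 markers and the other gene lists were chosen with earlier results of these data known.

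Counts were tested in edgeR 4.0.16 (R 4.3.3) with the quasi-likelihood test, TMM scaling, the filterByExpr default minimum of 10 counts, treatment as the only term, all 12 rats, and two-sided p-values adjusted by Benjamini-Hochberg over 12325 genes at 0.05. The study used DESeq2, for which the methods give no design formula, and DESeq2 1.42.0 with treatment as the only term was an alternative here, as was limma-voom (limma 3.58.1). CPM are scaled by TMM and were taken to log2 with a prior count of 2. The sheet was taken from library suffixes, rat numbers taken to rise with the suffix within a sheet, and the first principal component (68.4% of variance, 11 rats without rat 6). Single genes were compared by exact permutation of rats (Python 3.11.15, SciPy 1.17.1). The edgeR step was tested on simulated counts.

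The genes named in the text were the 5 markers, other CA1-enriched genes and relatives of the markers. Also named were any other listed gene with an unadjusted p under 0.05 in the fit of treatment alone, and the 3 genes most like each marker by r after centring within sheet. Genes outside this rule are the 5 pyramidal neuron genes, named as the members of a sum. Alternatives were other scalings and filters, the sheet as a covariate, and each rat left out. A result for 1 gene of the marker lists is not reported here.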

Additional observations from a re-analysis of the deposited data

Results flagged for a closer look

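Pou3f1 in blast-control rat 4 stood at 110 CPM against 42.4 to 63.6 CPM in the other 5 blast-control rats. The gap to the nearest rat was 0.688 of the range of the group, above the critical value of 0.625 for 6 samples. Without rat 6 the gap is the same and the critical value for 5 samples is 0.710, which it does not reach. Chance puts about 1 in 20 groups past this limit. Without rat 4 the log2 fold change of Pou3f1 was 0.03 in place of -0.23.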

How the results depend on the processing

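No marker had an adjusted p under 0.05 in any of 29 alternative fits, of which those on 1 sheet alone or with another sheet assignment, like the interaction test, were chosen after seeing the data. Wfs1 kept its direction in all 29, from -0.53 to -0.15. The number of markers with an unadjusted p under 0.05 rose from 0 to 1, Wfs1, in 12 of them: DESeq2, RLE and upper quartile scaling, sheet as a covariate with and without rat 6, sheet B alone, also without rat 6 or 4, 1 other sheet assignment, and without rat 1, 9 or 17. The cause was not tested.

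Leaving out 1 rat at a time, the edgeR log2 fold change was -0.43 to -0.26 for Wfs1, -0.27 to 0.05 for Mpped1, -0.14 to 0.07 for Fibcd1 and -0.33 to 0.03 for Pou3f1. It turned positive without rat 7 for Mpped1 (0.05), without rat 4 for Pou3f1 (0.03), and without rat 4 (0.03), 7 (0.05), 12 (0.07), 17 (0.04) or 19 (0.07) and in sheet A alone (0.21) for Fibcd1. In sheet B without rat 4, Mpped1 was at 0.06 and Fibcd1 at 0.04. Markers with an unadjusted p under 0.05 were 0 to 1, and all genes 85 to 214.

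The difference in mean log2 CPM was -0.43 to -0.25 for Wfs1, -0.28 to 0.56 for Mpped1, -0.14 to 0.10 for Fibcd1 and -0.23 to 0.05 for Pou3f1 with 1 rat left out. For Wfs1 the exact permutation p passed 0.05 with RLE scaling (-0.36, p = 0.0260), within sheets (-0.35, p = 0.0100), and without rat 1, 9 or 17. Mpped1 turned from 0.33 to -0.28 without rat 6, also within sheets, to -0.06 in sheet A alone and to -0.39 in sheet B without rat 6. Fibcd1 turned to 0.22 in sheet A alone. In sheet B without rat 4, Fibcd1 was at 0.05 and Pou3f1 at 0.18.

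Genes with an unadjusted p under 0.05 numbered 132, and 85 in DESeq2, 279 in DESeq2 without rat 6, 254 without a filter, 474 and 670 with sheet as a covariate, all rats or without rat 6, 421 in sheet A, and 481, 692 and 1128 in sheet B with all rats, without rat 6 and without rat 4. No paired analysis was possible because the groups share no rat numbers. The 6 rats per group limit the precision. In rat 6 depth limits every marker, Wfs1 included.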
